A study of Mus musculus with 14 samples.

Results

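Neurospheres grown from the adult mouse striatum were set against neurospheres grown from the adult subventricular zone (SVZ), 3 arrays of each. These 6 arrays, of 14 in the series, were taken by their sample titles. The other arrays were of adult neocortex (3), embryonic dorsal forebrain (2), embryonic ventral forebrain (2) and embryonic spinal cord (1). They entered the main fit, which took all 14 arrays together. The spread behind each p-value is thus pooled within groups over all 14 arrays, and can come largely from arrays other than striatal and SVZ. Neurospheres float in culture and hold stem and progenitor cells of the nervous system with their progeny, and those measured here were secondary, formed again after a first round of spheres. The striatal and SVZ groups came from wild type CD-1 mice, an outbred strain, labelled only as adult, with no treatment. RNA was read on the Affymetrix Mouse Genome 430 2.0, 1 array a sample. Nothing in the labels says that the 3 samples of a region had their own animals or cultures, so the spread behind each p-value is that between samples and may be technical.

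The SVZ is the germinal layer along the lateral ventricle that makes olfactory bulb neuroblasts through adult life, and its stem cells lie beside multiciliated ependymal cells. The striatum next to it is mature grey matter crossed by myelinated axon bundles, with resident microglia, astrocytes and dividing oligodendrocyte progenitors but no germinal layer of its own. Dissociated brain tissue carries microglia and oligodendrocytes as well as neural progenitors, so a sphere culture can hold all of them. In such bulk RNA, fewer cells of a type and less RNA per cell cannot be told apart.

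Of the 45101 probe sets on the array, 35211 other than controls were detected (detection p under 0.05) on at least 2 of the 14 arrays and were tested. The comparison was read through 7 named probe sets and 26 gene lists, with 1 probe set for each gene. Of 315 listed genes, 281 had a tested probe set. Array medians ran from 235 to 273.7 in striatal spheres and from 222.1 to 244.6 in SVZ spheres, and 63.4% to 64.7% of probe sets were detected on striatal arrays and 60.2% to 63.7% on SVZ arrays. For the Gapdh control probe sets the log2 ratio, 3' end over 5' end, was 0.67 to 1.02 in striatal spheres and 0.64 to 0.72 in SVZ spheres. Over all tested probe sets striatal replicate 1 correlated with the other striatal arrays at 0.968 and 0.964, against 0.979 between replicates 2 and 3, and the SVZ arrays correlated among themselves at 0.968 to 0.972. On hypoxia, glycolysis and interferon-stimulated genes replicate 1 lay apart from replicates 2 and 3, as described with those lists. It was also above both on all 12 cholesterol synthesis genes and all 5 cell cycle brakes tested. On 12 of 22 microglial and 8 of 16 cell cycle genes it was below both. The share of all genes with either order is not given here. All 12 neural stem and radial glia genes on that list, among them Nes and Sox2, were detected on all 6 arrays.

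Striatal spheres carried more RNA of macrophage and microglial genes, of myelin genes and of DNA replication genes, and less of 3 of 13 astrocyte genes. With limma, 814 probe sets (2.31% of those tested) passed an adjusted p of 0.05, 599 higher in striatal spheres (1.7%) and 215 lower (0.611%). Of these, 676 differed at least 2-fold, 525 higher and 151 lower. Over all tested probe sets, 5633 had an unadjusted p under 0.05. Striatal and SVZ arrays did not overlap for any of the 814 calls, so a lack of overlap adds nothing to a call. The share of all tested probe sets without overlap is not given here. With 1 probe set per named gene, 463 of 14716 genes (3.15%) were called, 2.3% higher and 0.849% lower. The median difference over all tested probe sets was -0.08 on the log2 scale, and 0.03 when the deposited values were not centred on each array's median. The number of calls depended on single arrays: it was 1209 without striatal replicate 1, 82 without striatal replicate 2, 120 without striatal replicate 3, and 231, 390 and 237 without SVZ replicates 1, 2 and 3. Other fits of the same values called more: 4.62% of genes higher and 4.01% lower with only the striatal and SVZ arrays fitted, 5.04% and 4.13% with the 9 adult arrays, and 7.73% and 9.33% with array weights. Where a list's count moves with these fits by over 1.5 times, the counts are given in that order beside it. Of the 50 calls among the probe sets named by rule, 17 were kept in all 6 of these fits: Mmp12, Clec4d, Itga4, Lyz1, Lyz2, Msr1, Spock1, Il33, Ugt8a, Mag, Mcm5, Ccna2, Cnn1, Insl5 and 3 probe sets with no listed gene.

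**Figure D1:**
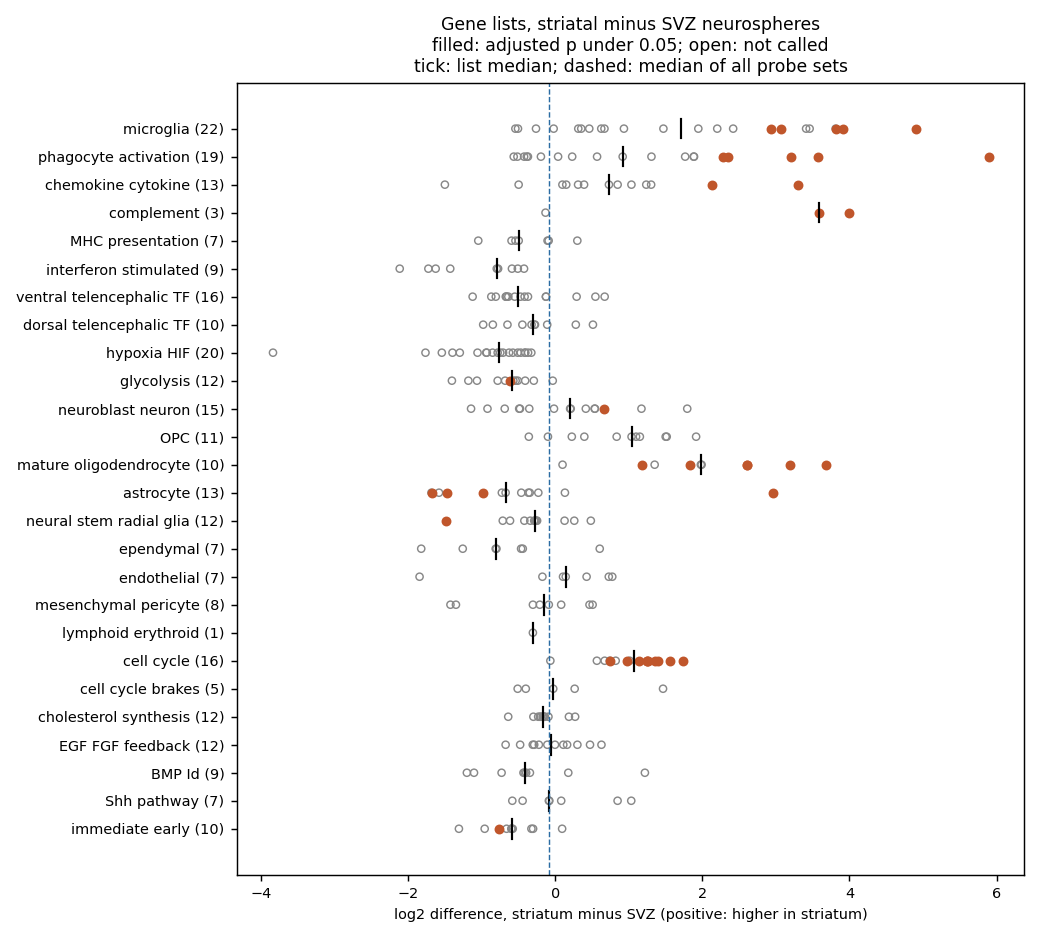
Log2 difference, striatal minus SVZ spheres (horizontal axis), for every tested gene of the 26 lists (rows, genes tested in brackets). Filled points passed an adjusted p of 0.05, open points did not, ticks mark list medians, and the dashed line is the median of all probe sets at -0.08. Filled points to the right gather in the microglia, phagocyte, mature oligodendrocyte and cell cycle rows.

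Ctss encodes cathepsin S, a lysosomal protease of microglia and macrophages. Its probe set had signals of 3133, 6389 and 4721 in striatal spheres, against 160, 31.6 and 231 in SVZ spheres. No striatal array overlapped the SVZ arrays, and the signal was 30.0-fold higher in striatal spheres (log2 difference 4.91 ± 0.95 SE, adjusted p = 0.02). That call was kept without striatal replicate 1 (adjusted p = 0.033) and lost without any other single array: without striatal replicates 2 and 3 the adjusted p was 0.112 and 0.087, and without SVZ replicates 1, 2 and 3 it was 0.0644, 0.0772 and 0.0551. Cd68, a lysosomal glycoprotein of the same cells, gave signals of 1465, 1367 and 935 in striatal spheres and 1324, 1227 and 1580 in SVZ spheres. Those ranges overlapped (log2 difference -0.26 ± 0.28 SE, adjusted p = 0.709).

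The other named probe sets passed no test. Six3 and Dlx2, homeobox genes of the ventral telencephalon, had log2 differences of -0.55 (adjusted p = 0.502) and -0.81 (adjusted p = 0.668). Dcx, a microtubule protein of neuroblasts, ran from 160 to 243 in striatal spheres and from 112 to 202 in SVZ spheres (log2 difference 0.21, adjusted p = 0.878). Pdgfra, the growth factor receptor of oligodendrocyte progenitors, ran from 1985 to 3900 in striatal spheres and from 833 to 2004 in SVZ spheres (log2 difference 1.04 ± 0.51 SE, adjusted p = 0.343). Car9, a carbonic anhydrase induced by hypoxia, split the striatal arrays and is described with its list.

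**Figure D2:**
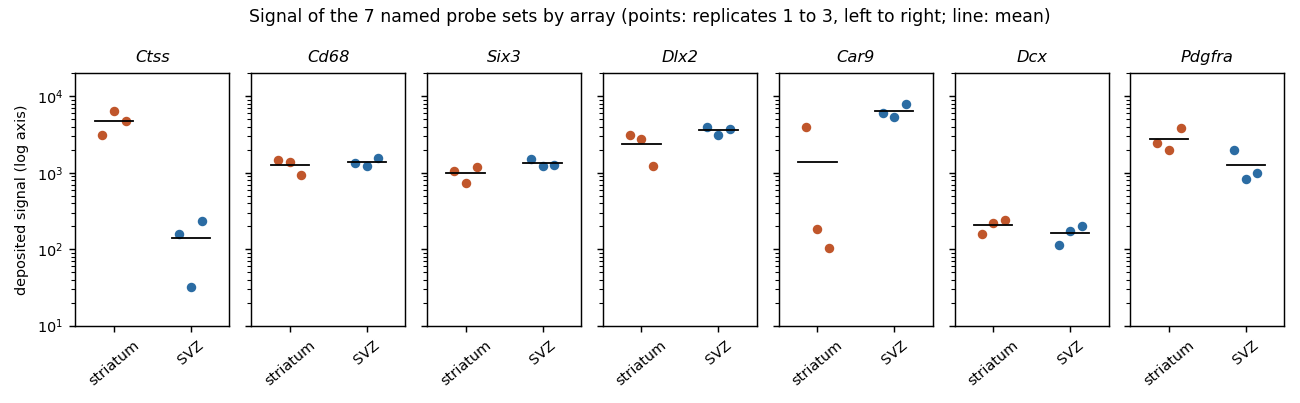
Deposited signal (log axis) of the 7 named probe sets in striatal (left) and SVZ (right) spheres, with 1 point per array in replicate order and a line at the mean. Ctss separates the regions, with striatal signals from 3133 to 6389 above SVZ signals from 31.6 to 231, and Car9 is high on 1 striatal array at 3904 and low on the others at 185 and 104.

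Of 22 microglial genes tested, 5 rose in striatal spheres and none fell, with a list median of 1.71 on the log2 scale against -0.08 over all probe sets. Beside Ctss these were Tyrobp, the signalling adaptor of myeloid receptors, Cd53, a leukocyte tetraspanin, Ptprc, the CD45 phosphatase, and Mpeg1, the macrophage pore-forming protein. Tyrobp had signals of 2339, 4394 and 4180 in striatal spheres, against 341, 104 and 235 in SVZ spheres (log2 difference 3.81 ± 0.69 SE, adjusted p = 0.0148). Cd53 and Ptprc were detected on all 3 striatal arrays and on no SVZ array, at least 14.7-fold and at least 6.83-fold higher in striatal spheres (adjusted p = 0.0465 and 0.036). Such a bound is given where all arrays of the dimmer region failed detection. As for every call, striatal and SVZ arrays did not overlap for any of these genes.

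The other 17 microglial genes were not called, although 11, 11 and 12 of the 22 were called higher with only the 2 regions fitted, with the 9 adult arrays and with array weights. Csf1r, the receptor that microglia need to survive, was detected on all 3 striatal arrays at 695, 1504 and 386 and on no SVZ array, where signals were 8.80, 48.4 and 21.3, yet did not pass the test with all 14 arrays fitted (log2 difference 3.81 ± 1.26 SE, adjusted p = 0.151). It was called in all 3 of the other fits just named. C1qb, a chain of complement C1q, differed by 3.41 (adjusted p = 0.177) and Laptm5, a lysosomal membrane protein of leukocytes, by 3.46 (adjusted p = 0.123). P2ry12 and Cx3cr1, receptors of resting microglia, differed by 0.46 (adjusted p = 0.8) and 0.31 (adjusted p = 0.868). Tmem119, C1qa, Trem2 and Fcrls were not detected on any array of either region. The summed signal of the list was 14809 to 29119 in striatal spheres and 2804 to 3652 in SVZ spheres. Without striatal replicate 1 the list still had 5 calls, all higher, where 2.56% of all genes were called higher. Without striatal replicates 2 or 3 it had 0 (backgrounds 0.306% and 0.415%), and without SVZ replicates 1, 2 or 3 it had 1 in each fit (0.849%, 1.32% and 0.863%).

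Phagocyte activation genes included the largest log2 difference of all called probe sets, that of Mmp12. Of 19 tested, 5 rose and none fell, with a list median of 0.92. In the other 3 fits 8, 8 and 9 were called higher and 2 lower in each. Mmp12, the macrophage elastase, had signals of 1078, 4141 and 2726 in striatal spheres and 4.5, 4.7 and 21 in SVZ spheres, where no array detected it. It was at least 47.9-fold higher in striatal spheres (log2 difference 5.89 ± 0.45 SE, adjusted p = 0.000252), and the call was kept whichever array was left out (adjusted p up to 0.0042). Msr1, the class A scavenger receptor, had signals of 211, 808 and 576 in striatal spheres, against 12.9, 15.9 and 6.10 in SVZ spheres, at least 10.3-fold higher in striatal spheres (adjusted p = 0.00254). Lyz2, macrophage lysozyme, was detected on all 6 arrays, at 5119, 6658 and 5455 in striatal spheres and 779, 458 and 464 in SVZ spheres. It was 9.19-fold higher in striatal spheres (log2 difference 3.20 ± 0.32 SE, adjusted p = 0.00133). The Lyz1 probe set, which was 12.6-fold higher in striatal spheres, cannot be cleanly told from Lyz2, a near-identical copy.

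Lpl, the lipoprotein lipase that lipid-handling phagocytes and glia make, was 4.86-fold higher in striatal spheres (adjusted p = 0.0121, but 0.084 and 0.0695 without striatal replicates 2 and 3). Cd36, a fatty acid and scavenger receptor, was 5.11-fold higher (adjusted p = 0.043), a call lost in all 6 fits that left out 1 array, and 1 of its 3 probe sets was called. Lysosomal proteases that many cell types make did not pass the test: Ctsb, Ctsd, Ctsl and Ctsz had log2 differences of -0.56, -0.39, -0.19 and -0.51. Without striatal replicate 1, Ctsb fell by 0.69 (adjusted p = 0.0276). Itga4, the alpha4 integrin of leukocytes, and Clec4d, a C-type lectin of myeloid cells, were among the 15 largest rises by log2 difference. Itga4 had signals of 1031, 1451 and 2690 in striatal spheres and 68.7, 133 and 83.8 in SVZ spheres (12.6-fold, adjusted p = 0.00133), with 4 of its 5 probe sets called. Clec4d was at least 16.8-fold higher in striatal spheres (adjusted p = 0.00255).

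Of 13 chemokine and cytokine genes, 2 rose. Ccl3, a chemokine of activated microglia, had signals of 1936, 777 and 372 in striatal spheres and 82, 29 and 58.3 in SVZ spheres, none of which detected it. It was at least 9.85-fold higher in striatal spheres (adjusted p = 0.0172), a call lost without striatal replicate 2 (0.0904) or SVZ replicate 2 (0.0657) or 3 (0.0696). Il33, the alarmin that oligodendrocytes and astrocytes of the adult brain hold in their nuclei, had signals of 22269, 31145 and 30542 in striatal spheres and 5890, 6287 and 5332 in SVZ spheres. That was a 4.38-fold difference (log2 difference 2.13 ± 0.23 SE, adjusted p = 0.00167), kept whichever array was left out. Ccl2, Cxcl2 and Tnf did not pass the test (adjusted p = 0.976, 0.899 and 0.838). The striatal arrays disagreed on Cxcl2, with log2 levels of 2.52, -2.23 and -1.77 on replicates 1, 2 and 3 relative to the SVZ mean. For Ccl2 they were 1.70, -0.50 and -0.90, and for Tnf 0.29, 0.05 and 0.60.

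Receptors for complement fragments rose as well. C3ar1, the C3a receptor, had signals of 855, 2228 and 1594 in striatal spheres, against 45.3, 18.4 and 166 in SVZ spheres (15.9-fold, adjusted p = 0.0143), and all 3 of its probe sets were called. C5ar1, the C5a receptor, was at least 12-fold higher in striatal spheres (adjusted p = 0.0314). Both calls were lost without striatal replicates 2 (adjusted p = 0.0957 and 0.16) or 3 (0.0723 and 0.122) and without SVZ replicates 1 (0.0625 and 0.115) or 2 (0.0543 and 0.0726), and that of C5ar1 also without SVZ replicate 3 (0.122). Of 7 genes of MHC presentation, none was called. Among them B2m, the light chain of MHC class I, differed by -0.10 (adjusted p = 0.925), with the sign turned when the values were not centred (0.00906) or were quantile normalized (0.094).

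Myeloid genes are known for control by PU.1, the ETS-family factor that Spi1 encodes. The promoter windows of Ctss and Mmp12, the listed myeloid genes with the largest log2 differences here, are shown for that reason, from 250 bases before the start to 50 after it (RefSeq, GRCm38.p6, plus strand). They lie at chr3:95526536-95526835 and chr9:7344147-7344446. Capitals mark a match to the PU.1-type motif GAGGAAGT, searched on both strands; its GGAA core is shared by other ETS factors.
Ctss: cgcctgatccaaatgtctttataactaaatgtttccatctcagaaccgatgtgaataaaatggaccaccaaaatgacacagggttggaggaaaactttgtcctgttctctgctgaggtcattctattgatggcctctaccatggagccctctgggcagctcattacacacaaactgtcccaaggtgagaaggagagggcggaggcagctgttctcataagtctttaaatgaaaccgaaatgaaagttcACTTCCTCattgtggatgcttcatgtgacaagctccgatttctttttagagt
Mmp12: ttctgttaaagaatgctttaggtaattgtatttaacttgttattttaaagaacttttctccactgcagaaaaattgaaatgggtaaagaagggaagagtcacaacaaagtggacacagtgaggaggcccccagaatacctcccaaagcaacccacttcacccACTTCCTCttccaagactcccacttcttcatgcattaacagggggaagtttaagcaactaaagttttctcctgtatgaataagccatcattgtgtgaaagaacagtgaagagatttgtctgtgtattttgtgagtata
In both windows the match was on the minus strand. It begins 2 bases before the start in Ctss, and so spans that start, and 88 bases before the start in Mmp12. A second annotated start of Mmp12 had none, nor had the window of Lyz2. The motif was found in 3.2% of 32851 promoter windows, in 3 of 19 windows of microglial genes (15.8%) and in 1 of 19 windows of phagocyte genes (5.26%). Some genes have more than 1 window. Binding was not measured.

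Of 10 mature oligodendrocyte genes tested, 6 rose in striatal spheres and none fell. All 10 had a positive log2 difference, with a median of 1.98. Mog, a glycoprotein of the outermost myelin, had signals of 4899, 9907 and 8644 in striatal spheres, against 744, 628 and 286 in SVZ spheres (12.9-fold, adjusted p = 0.01). Mag, the adhesion protein of inner myelin, had 3018, 5399 and 6246 in striatal spheres and 715, 785 and 575 in SVZ spheres (6.09-fold, adjusted p = 0.00167). Ugt8a, the enzyme that makes the myelin lipid galactosylceramide, had 7379, 14332 and 15050.3 in striatal spheres and 972, 1290.2 and 1222 in SVZ spheres (9.17-fold, adjusted p = 0.00167). Striatal replicate 1 was the lowest of the striatal arrays for each of these, and still above every SVZ array.

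Mbp, myelin basic protein, had signals of 41375, 43971 and 46450 in striatal spheres and 15954, 20930.0 and 17092 in SVZ spheres. The 2.27-fold difference was called (adjusted p = 0.00526), as were 6 of the 8 Mbp probe sets. Ermn, a cytoskeletal protein of mature oligodendrocytes, and Opalin, a myelin membrane protein, were 6.06-fold and 3.57-fold higher in striatal spheres (adjusted p = 0.0151 and 0.0389). Mobp, Myrf, Cldn11 and Cnp were not called at the brightest probe set, with log2 differences of 1.99, 1.98, 1.35 and 0.10. Myrf, the master transcription factor of myelination, passed without striatal replicate 1 (2.33, adjusted p = 0.0428). The list had 7 calls without striatal replicate 1, 3 without striatal replicate 2 or 3, and 4, 5 and 3 without SVZ replicates 1, 2 and 3. Its summed signal was 108800 to 143320 in striatal spheres and 50347 to 58383 in SVZ spheres, and the microglial sum given above was also higher in striatal spheres. The part of cell type mixture in these differences was not tested.

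No oligodendrocyte progenitor gene passed the test with all 14 arrays fitted. Of the 11 genes, 5, 5 and 3 were called higher in the fits of the 2 regions alone, of the 9 adult arrays and with array weights, with Sox10, Lhfpl3 and Cacng4 in all 3. The 11 genes had a median of 1.04, with Sox10 at 1.92 (adjusted p = 0.307), Cspg4, the NG2 proteoglycan, at 1.52 (adjusted p = 0.425), Lhfpl3 at 1.5 (adjusted p = 0.285) and Cacng4 at 1.15 (adjusted p = 0.0867). Sox10 had signals of 1998, 2578 and 2969 in striatal spheres, against 951, 403 and 527 in SVZ spheres. Olig1 and Olig2, the lineage factors, differed by 0.23 ± 1.14 SE (adjusted p = 0.952) and 0.40 ± 1.15 SE (adjusted p = 0.911). Those SEs are pooled over all 14 arrays and exceed the spread seen here. Relative to the SVZ mean, Olig1 log2 levels were 0.22, 0.22 and 0.24 on striatal arrays and 0.04, 0.04 and -0.08 on SVZ arrays. For Olig2 they were 0.28, 0.46 and 0.44 on striatal arrays and 0.01, 0.01 and -0.01 on SVZ arrays.

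Replication and mitosis genes also rose in striatal spheres. Of 16 cell cycle genes, all detected on all 6 arrays, 10 were called higher in striatal spheres and none lower, with a median of 1.08. The called genes were 5 subunits of the MCM helicase that opens DNA for replication (Mcm2, Mcm3, Mcm5, Mcm6 and Mcm7), and Ccna2, Mki67, Top2a, Bub1 and Aurkb. Mcm5 had signals of 7040, 10929 and 11710 in striatal spheres, against 2061, 2933 and 3148 in SVZ spheres (3.32-fold, log2 difference 1.73 ± 0.20 SE, adjusted p = 0.00183). Ccna2, the S and G2 phase cyclin, had 8021, 8801 and 9799 in striatal spheres and 2602, 2443 and 3250.4 in SVZ spheres (2.96-fold, adjusted p = 0.00632). Both calls were kept whichever array was left out. Mki67, the proliferation marker Ki-67, was 1.97-fold higher in striatal spheres (16060.4, 20480 and 18256, against 6887, 9545 and 9458, adjusted p = 0.0143). For Mki67, Mcm5 and Ccna2 alike, the lowest striatal array lay above the highest SVZ array, and no call had overlapping arrays.

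Pcna, the replication clamp, differed by 0.57 and was not called (adjusted p = 0.0694), and Ccnd1, the G1 cyclin that growth factors induce, differed by -0.07 (adjusted p = 0.972). The list had 8 calls without striatal replicate 1, 2 and 3 without striatal replicates 2 and 3, and 4, 7 and 5 without SVZ replicates 1, 2 and 3. Those left without striatal replicate 2 included Mcm5 (adjusted p = 0.0205) and Ccna2 (0.0452), while Mcm6 had 0.0547. None of 5 cell cycle brakes was called; Cdkn2a, which encodes p16 and p19Arf, differed by 0.26 (adjusted p = 0.825), and Cdkn1a, which encodes p21, by -0.40 (adjusted p = 0.847). Cdkn1c, which encodes p57, was called higher in each of the other 3 fits, and Cdkn1a lower in that of the 9 adult arrays.

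E2F factors switch on replication genes at the start of S phase. The windows of Mcm5 (chr8:75109259-75109558, plus strand) and Mcm6 (chr1:128359656-128359955, minus strand) are shown because both genes were called here and both hold the E2F-type motif TTTGGCGC, in capitals; TTTCCCGC was searched too, on both strands, and neither overlaps the other motifs named here.
Mcm5: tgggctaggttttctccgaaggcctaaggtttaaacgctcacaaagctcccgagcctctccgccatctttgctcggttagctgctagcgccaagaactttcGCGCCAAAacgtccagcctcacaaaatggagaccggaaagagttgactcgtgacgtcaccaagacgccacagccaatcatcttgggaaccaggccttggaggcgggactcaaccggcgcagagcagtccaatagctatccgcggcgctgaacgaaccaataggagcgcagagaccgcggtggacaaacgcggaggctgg
Mcm6: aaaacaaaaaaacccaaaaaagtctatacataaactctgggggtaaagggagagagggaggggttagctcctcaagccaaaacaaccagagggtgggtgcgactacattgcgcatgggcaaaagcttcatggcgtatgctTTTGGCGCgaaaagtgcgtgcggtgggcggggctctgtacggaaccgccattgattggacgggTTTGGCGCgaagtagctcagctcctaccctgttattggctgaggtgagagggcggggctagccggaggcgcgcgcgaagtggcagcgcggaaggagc
The match in Mcm5 is on the strand opposite to the gene, 149 bases before the start, and Mcm6 has 2 matches, the farther one 110 bases before its start. Of 13 windows of cell cycle genes, 4 held a motif (30.8%, in Mcm3, Mcm5, Mcm6 and Mcm7), against 1.56% of all promoter windows. All 4 genes were called, but so were genes with no match in the window, such as Mki67 and Mcm2.

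**Figure D3:**
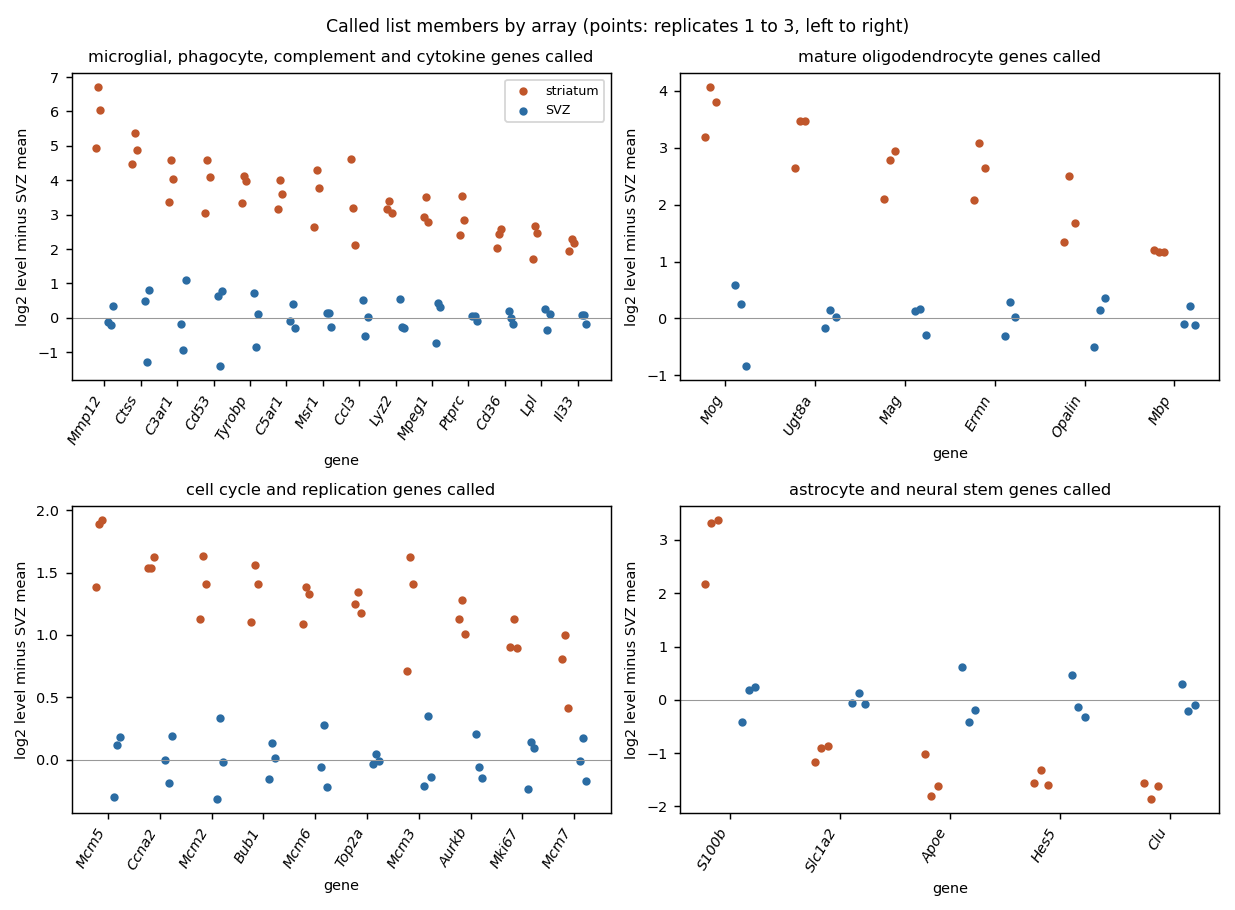
Log2 level on each array minus the SVZ mean (vertical axis) for the called genes of the myeloid, mature oligodendrocyte, cell cycle, and astrocyte and neural stem lists, with striatal points left of SVZ points for each gene and replicates in order. Mmp12 reaches 6.71 on striatal replicate 2, the cell cycle genes lie between 0.42 and 1.92 on striatal arrays, and Clu, Apoe, Slc1a2 and Hes5 lie below 0 on every striatal array.

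Astrocyte genes moved in both directions. Of 13 tested, 3 fell in striatal spheres and 1 rose, with a median of -0.67. The other 3 fits called 7, 5 and 4 lower and 1 higher in each. Clu, the secreted chaperone clusterin, had signals of 4705, 4157 and 5173 in striatal spheres, against 16148, 12117 and 13498 in SVZ spheres, and fell by 1.68 on the log2 scale (adjusted p = 0.01), with all 4 of its probe sets called. Slc1a2, the glutamate transporter GLT-1, fell by 0.98 (8765, 11463 and 12353 in striatal spheres, against 17919, 21763 and 19205 in SVZ spheres, adjusted p = 0.0113). Apoe, the lipid carrier of astrocytes, fell by 1.48 (adjusted p = 0.0474), a call lost without striatal replicate 2 or 3 or any 1 SVZ array (0.0657 to 0.232). The calls of Clu and Slc1a2 were lost without striatal replicate 2 (0.0743 and 0.0614), and that of Clu also without striatal replicate 3 (0.0544) or SVZ replicate 1 (0.0536).

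S100b, a calcium-binding protein of astrocytes that oligodendrocyte-lineage cells also make, went the other way. Its signals were 3038, 7378 and 8006 in striatal spheres, against 452, 747 and 799 in SVZ spheres (7.78-fold, adjusted p = 0.00644; 0.0563 without striatal replicate 2). Gfap, the astrocyte filament, was variable within the striatal spheres, at 3120.3, 7213 and 12744, against 18746, 17327 and 18832 in SVZ spheres. Those arrays did not overlap, but the test was not passed (log2 difference -1.58 ± 1.34 SE, adjusted p = 0.62). That SE is pooled within groups over all arrays fitted, and can come largely from arrays other than striatal and SVZ. Relative to the SVZ mean, Gfap log2 levels were -2.54, -1.47 and -0.72 on striatal arrays and 0.11, -0.09 and -0.01 on SVZ arrays. Aqp4, the water channel of astrocyte endfeet, differed by -1.68 and likewise was not called (adjusted p = 0.309).

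Of 12 neural stem and radial glia genes, only Hes5, a Notch target, was called. It had signals of 478, 628 and 534 in striatal spheres and 1920, 1329 and 1198 in SVZ spheres, 2.80-fold lower in striatal spheres (adjusted p = 0.00806; 0.0516 without striatal replicate 3), and 1 of its 2 probe sets was called. The other 3 fits called 2, 2 and 3 lower. Nes and Sox2 differed by -0.34 (adjusted p = 0.516) and -0.42 (adjusted p = 0.31). Of 15 neuroblast and neuron genes, Map2, the dendritic microtubule protein, rose 1.59-fold (adjusted p = 0.031) and 14 were not called. The Map2 call was lost in 5 of the 6 fits that left out 1 array (adjusted p up to 0.141), without striatal replicates 2 or 3 or any 1 SVZ array. In the other 3 fits 3, 3 and 4 were called higher, Tubb3 and Sox11 among them, and with array weights 1 was called lower. Tubb3, the neuronal tubulin, had signals of 2205, 1241 and 1648 in striatal spheres and 147, 702 and 679 in SVZ spheres (log2 difference 1.79 ± 0.47 SE, adjusted p = 0.0689).

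No listed transcription factor that patterns the telencephalon passed the test. None of 16 ventral genes (median -0.51) and none of 10 dorsal genes (median -0.30) was called. With 3.15% of all genes called, 0 calls in lists this short says little. The sums of deposited signals over each list are given without a test. They were not centred by array, bright genes weigh most in them, and the share of sums that would not overlap is not given here. The ventral sum was 9089 to 12600 in striatal spheres and 13682 to 15186 in SVZ spheres. The dorsal sum was 19975 to 22551 in striatal spheres and 26015 to 30645 in SVZ spheres. In the other 3 fits no ventral gene was called, and 1, 0 and 2 dorsal genes were called lower, Emx2 and Pax6. With the replicate number as a block, 1 ventral and 2 dorsal genes were called lower. Dlx2, which specifies interneurons, had signals of 3126, 2768 and 1219 in striatal spheres and 3976, 3104 and 3689 in SVZ spheres, and Six3 had 1065, 729 and 1185 in striatal spheres and 1534, 1224 and 1244 in SVZ spheres. Lhx6, Lhx8, Isl1, Ebf1 and Foxp2, marks of striatal or pallidal neurons and their precursors, were not detected on any array of either region. Emx2, Pax6 and Lhx2, factors of the dorsal telencephalon, were detected on all 6 arrays. For comparison on the same probe sets, Dlx2 averaged 1183 and Six3 averaged 120.1 in adult neocortical spheres (n = 3).

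The striatal arrays disagreed among themselves on hypoxia genes, the targets of HIF, the factor that is stabilised when oxygen is low. Car9 had signals of 3904, 185 and 104 in striatal spheres, against 5969, 5276 and 7911 in SVZ spheres. Replicate 1 was thus near the SVZ arrays and replicates 2 and 3 far below them (log2 difference -3.84 ± 1.21 SE, adjusted p = 0.131). All 20 tested genes of the list had a negative difference, with a median of -0.76, and none was called. In the other 3 fits 2, 1 and 11 were called lower, Car9 in each. On all 20, striatal replicate 1 was above replicates 2 and 3, and these lay below every SVZ array; the median position relative to the SVZ mean was 0.17 for replicate 1, -1.31 for replicate 2 and -1.54 for replicate 3 on the log2 scale. Vegfa, the angiogenic growth factor, had signals of 11118, 2769 and 2705 in striatal spheres and 15461, 12131 and 13961 in SVZ spheres.

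Without striatal replicate 1, 7 of the 20 were called lower in striatal spheres, where 2.07% of all genes were. These were Car9 (log2 difference -5.41, adjusted p = 0.017), P4ha1 and P4ha2, which hydroxylate collagen, Ddit4, Slc2a1, the glucose transporter GLUT1, Kdm3a and Mxi1. P4ha1 differed by -2.31 (adjusted p = 0.0131) and Slc2a1 by -1.18 (adjusted p = 0.02). Car9's promoter is shown as the example with the widest range among arrays (chr4:43506776-43507075, plus strand), with the core HIF motif ACGTG in capitals; that motif also lies within the E-box CACGTG.
Car9: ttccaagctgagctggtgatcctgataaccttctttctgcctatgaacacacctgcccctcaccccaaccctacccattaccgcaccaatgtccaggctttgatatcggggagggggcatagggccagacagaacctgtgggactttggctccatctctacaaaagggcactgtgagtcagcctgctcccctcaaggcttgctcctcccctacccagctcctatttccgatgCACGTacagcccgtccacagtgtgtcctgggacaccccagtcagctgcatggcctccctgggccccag
The match is on the minus strand, 18 bases before the start. ACGTG on either strand was found in 15 of 25 windows of hypoxia genes (60%) and in 19.6% of all windows.

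Striatal replicate 1 was also above replicates 2 and 3 on all 12 glycolysis genes, and Slc2a1, Ldha and Pgk1 are on both lists. Of these 12, Pfkm, the muscle-type phosphofructokinase, was called lower in striatal spheres (5544, 5402 and 5222, against 7857, 7198 and 7868, adjusted p = 0.0489). The Pfkm call was lost without striatal replicates 2 (0.206) or 3 (0.218) or SVZ replicates 1 (0.184), 2 (0.0934) or 3 (0.151). Without striatal replicate 1 the list had 5 calls, all lower: Hk1, Pfkp, Pfkl, Pfkm and Slc2a1. The fit with array weights called 7 lower. The Gapdh control probe set showed the same order, at 34473, 19541 and 19851 in striatal spheres and 36275, 31975 and 36244 in SVZ spheres.

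None of 9 interferon-stimulated genes was called, with a median of -0.79, and on all 9 striatal replicate 1 was above replicates 2 and 3, which lay below every SVZ array. Usp18, an interferon-induced protease, had signals of 680, 39.1 and 6 in striatal spheres, against 302, 353 and 259 in SVZ spheres. Without striatal replicate 1, Usp18, Oasl2 and Irf7 were called lower in striatal spheres (log2 differences -2.99, -3.03 and -2.34, adjusted p = 0.0499, 0.043 and 0.0391). Irf7 was also called lower with array weights. Why replicate 1 lay apart on these lists was not tested.

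**Figure D4:**
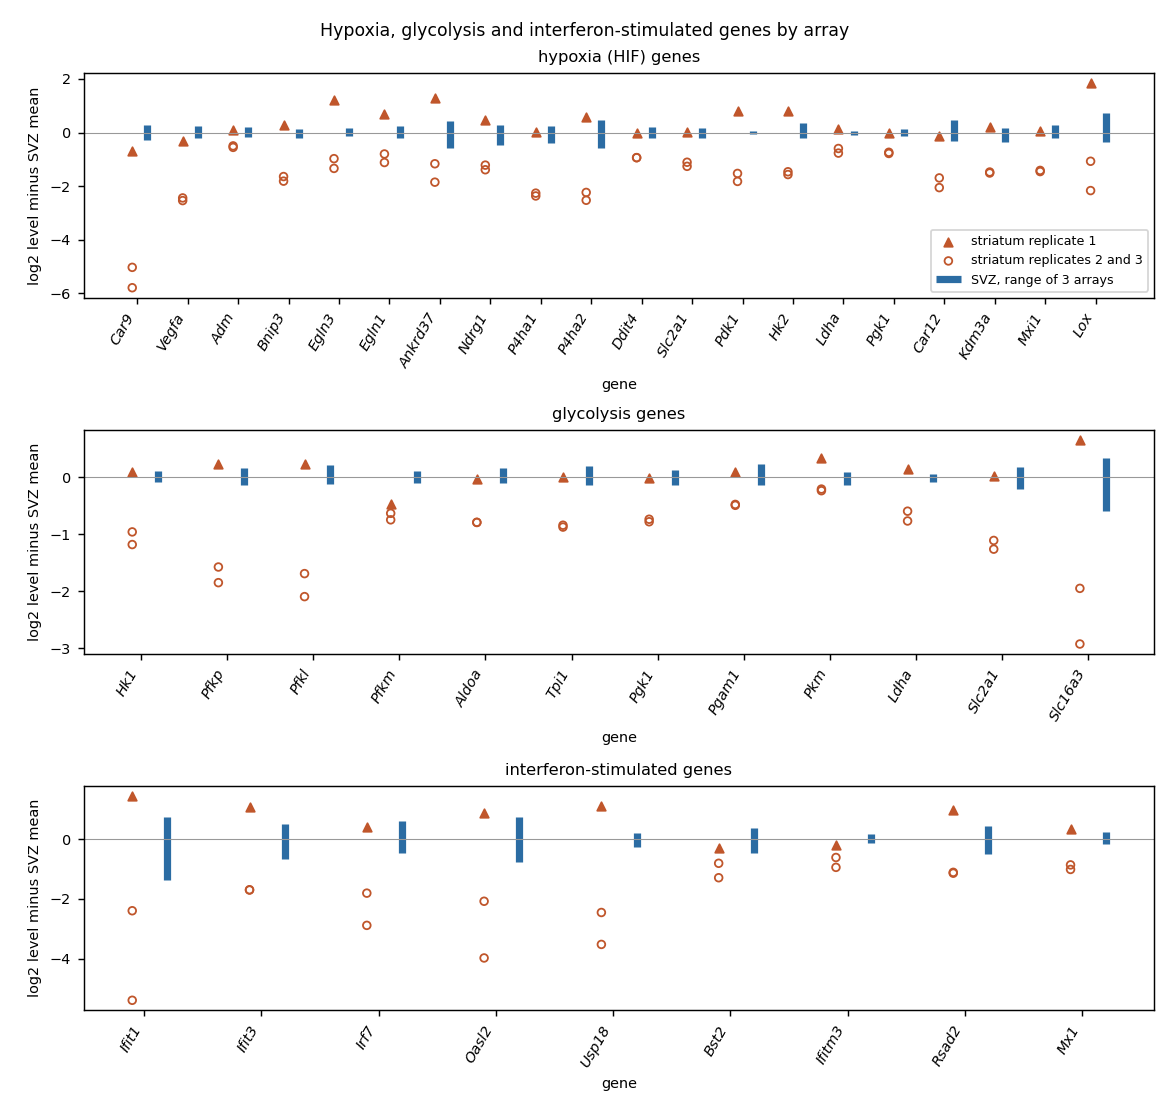
Log2 level minus the SVZ mean (vertical axis) for each hypoxia, glycolysis and interferon-stimulated gene, with a triangle for striatal replicate 1, open circles for striatal replicates 2 and 3 and a bar for the range of the 3 SVZ arrays. Triangles lie above both circles for every gene drawn, and the circles lie below the bars.

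Other signalling lists gave few calls. None of 12 cholesterol synthesis, 12 EGF and FGF receptor and feedback, 9 BMP and Id, 7 Sonic hedgehog, 7 endothelial or 8 mesenchymal and pericyte genes was called. On all 12 cholesterol synthesis genes striatal replicate 1 was again above replicates 2 and 3. Of the BMP and Id genes, Id1 and Id4 were called lower and Smad7 higher in each of the other 3 fits. Flt1, an endothelial VEGF receptor, was called lower in each, and other genes of these lists in at most 1 of them. Of 10 immediate early genes, Dusp1, a phosphatase that turns off MAP kinases, fell by 0.77 (6089, 6357 and 5904 in striatal spheres, against 8552, 8925 and 11723 in SVZ spheres, adjusted p = 0.0165). The other 3 fits called 3, 3 and 2 lower. The Dusp1 call was lost without striatal replicates 2 (0.0904) or 3 (0.0926) or SVZ replicate 3 (0.0869).

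The 15 largest falls by log2 difference were led by Csn3 and Slco1c1 among named genes. Csn3, kappa-casein of milk, had signals of 1343, 962 and 240.4 in striatal spheres, against 4908, 7765 and 7580 in SVZ spheres (10.1-fold lower in striatal spheres, adjusted p = 0.0188; 0.061 to 0.0837 without any 1 array other than striatal replicate 1). Slco1c1, the thyroid hormone transporter of brain vessels and astrocytes, had 199.9, 212 and 215 in striatal spheres and 3027, 1157 and 1378 in SVZ spheres (7.88-fold lower, adjusted p = 0.0309; 0.0515 to 0.143 in the 6 fits that left out 1 array). Sema3e, a secreted guidance protein, was 6.70-fold lower in striatal spheres (adjusted p = 0.00851; 0.0645 and 0.054 without striatal replicates 2 and 3). Dkk3, a secreted protein of the Dickkopf family, was 6.42-fold lower (adjusted p = 0.0122; 0.084, 0.0642 and 0.061 without striatal replicate 2, striatal replicate 3 or SVZ replicate 1). Cnn1, the smooth muscle protein calponin, kept its call in all 6 fits: it was not detected in striatal spheres and was at least 6.54-fold lower there (adjusted p = 0.00167).

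None of the 7 listed ependymal genes was called, 6 with a negative log2 difference and Dynlrb2, a dynein light chain, with a positive one (0.61). In the other 3 fits 2, 2 and 3 were called lower, Foxj1 and Pifo in each. Foxj1, the master factor of motile cilia, had signals of 1202, 1189 and 2360.1 in striatal spheres and 4182, 2860 and 3139 in SVZ spheres (log2 difference -1.26 ± 0.47 SE, adjusted p = 0.202). Cfap43, an axonemal protein among the 15 largest falls, had signals of 17.4, 13.8 and 69.9 in striatal spheres and 316, 216 and 282 in SVZ spheres (5.70-fold lower, adjusted p = 0.0147). Rsph4a, a radial spoke protein, and Maats1, an axonemal protein, were chosen after their values were seen, and were at least 4.62-fold and at least 3.61-fold lower in striatal spheres (adjusted p = 0.0172 and 0.00851). The Cfap43 call was lost without striatal replicate 2 (0.0991) or SVZ replicates 1 (0.0692) or 3 (0.0607), that of Maats1 without striatal replicates 2 (0.0594) or 3 (0.055), and that of Rsph4a in 5 of the 6 fits, all but the one without striatal replicate 1 (0.0526 to 0.0904).

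**Figure D5:**
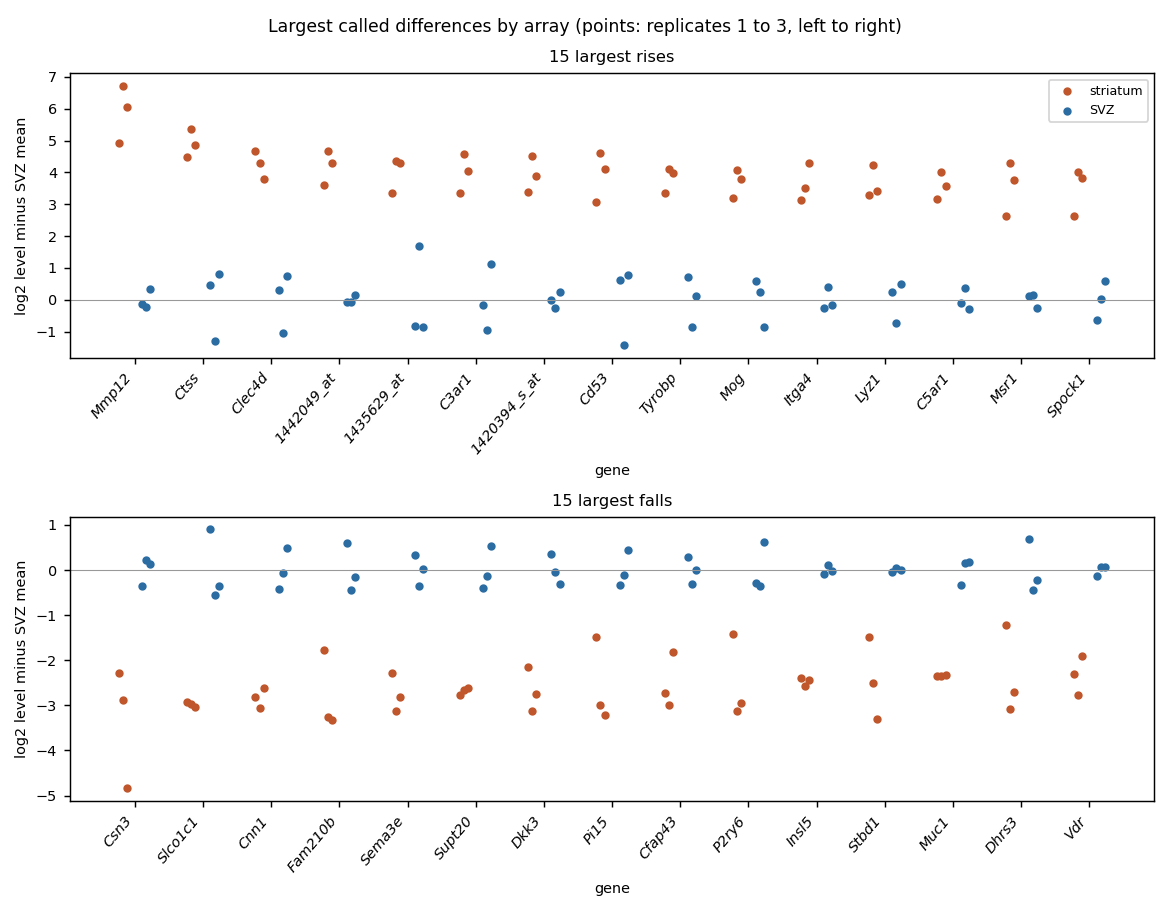
Log2 level on each array minus the SVZ mean (vertical axis) for the 15 largest rises and the 15 largest falls among called probe sets, at most 1 per gene, with striatal points left of SVZ points and replicates in order; identifiers stand for probe sets with no listed gene. The 30 were taken from called probe sets whose striatal and SVZ arrays do not overlap, which all 814 calls met.

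Adult neocortical spheres were set against the same SVZ arrays. The 2 comparisons share the SVZ arrays, so their values are given side by side only. Mmp12 averaged 2648 ± 1533 in striatal spheres, 23674.5 ± 7329 in neocortical spheres and 10.07 ± 9.47 in SVZ spheres (SD, n = 3 each). Microglial calls were 5 of 22 in striatal and 17 of 22 in neocortical spheres, against backgrounds of 3.15% and 13.3% of genes. Mature oligodendrocyte calls were 6 and 9 of 10, and cell cycle calls 10 and 6 of 16. Mcm5 was 1.73 higher on the log2 scale in striatal spheres and 1.35 higher in neocortical spheres than in SVZ spheres. In embryonic forebrain spheres the Mcm5 signal averaged 15681 (dorsal) and 14851 (ventral, n = 2 each). Differences between the neocortical and striatal values were not tested here.

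Detection calls gave a coarser view, with no test. There were 311 probe sets that passed detection on every striatal array and no SVZ array, and 90 with the opposite pattern.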

How the data were processed

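RNA of secondary neurospheres was measured on one-colour arrays, 1 per sample, per the labels. The authors deposited a linear intensity (Signal) for each probe set and array, from 0.1 to 106887, and a detection p-value, per the file headers. How signals were scaled, and by which software version, is not given in the sources used here. In the table of detection p-values, columns name the region but not the sample, and its 42 other columns of per-sample values were not used. Genes were named from the platform annotation: 34958 probe sets had 1 gene, 932 several and 9211 none.

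Each signal plus a pseudocount of 27.0 was put on a log2 scale and centred on its array's median, so fold changes of low signals are understated. The test was limma 3.58.1 (R 4.3.3): 6 group means fitted to all 14 arrays together, empirical Bayes with a variance trend, two-sided, Benjamini-Hochberg over 35211 probe sets (9826 were left out by the detection filter), and called at an adjusted p under 0.05. The fit was tested on simulated data. A gene is represented by its named probe set or the brightest tested one. Lower bounds set the brighter group's mean against, per array, the higher of the dim signal and the lowest signal among probe sets detected on every array of that region. The number of arrays limits the precision.

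Genes were named by rule: the 7 probe sets, the 15 largest rises and falls, up to 4 called genes of each list (or the 2 of highest mean) and Gapdh; other names were chosen after their values were seen. The comparison, the genes and the lists were chosen with earlier results of these data known. Same-numbered striatal and SVZ samples correlated in their deviations from the group means at 0.147, 0.133 and 0.0465. Differently numbered samples correlated at -0.123 to 0.0233, lower than each same-numbered value. Pairing by number is thus possible, but the labels do not state it, so the main fit had no block. The count of calls with the number as a block is given below. Alternatives covered scaling, pseudocount, filter, arrays fitted, weights, block, trend and each array left out.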

Additional observations from a re-analysis of the deposited data

How the results depend on the processing

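The 814 calls (38 among list genes) became 2247 (80) with only the striatal and SVZ arrays in the fit, 2393 (76) with the 9 adult arrays and 4837 (97) with array weights. With the replicate number as a block there were 3707 (99), and all 814 were among them. The array names carry 3 codes, each shared by 1 striatal, 1 SVZ and 1 neocortical array, of unstated meaning. A planned block on that code was not run, since the names do not say which sample they belong to; if the code marks a common preparation, a fit blocked on it would be the appropriate one. A stricter adjusted p of 0.01 left 140, and counting every tested probe set of the list genes gave 70. Leaving out 1 array gave from 82 to 1209 calls, and from 10 to 51 among list genes. Higher calls made up 73.6% of the 814, but 54.1% with only those 2 groups, 56.2% with the 9 adult arrays, 46.4% with array weights, 48.0% with the block, 55.1% without striatal replicate 1 and 83.6% with values as deposited. Of 50 named calls, 0 changed sign in the 17 alternative settings.

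The signs that turned belonged to genes without a call. With values as deposited these were B2m (0.00906), Cdkn2b (0.0863), Spry2 (0.00605) and Ptch1 (0.0328). With quantile normalization they were B2m (0.094), Vim (0.000403), Cdkn2b (0.146), Insig1 (0.0535), Spry2 (0.0904) and Ptch1 (0.0806). Over the fits that left out 1 array, Cdkn2b ranged from -0.134 to 0.0517, Insig1 from -0.32 to 0.0277 and B2m from -0.236 to 0.0303. The causes were not tested. Signal over background limits the dim genes, for which only bounds are given.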
